A study of Mus musculus with 4 samples.

Results

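WT1 binding was described at 8 genes of retinoic acid signalling: the retinoic acid receptor genes Rara, Rarb and Rarg, the retinoid X receptor genes Rxra and Rxrb, and the metabolism genes Stra6, Aldh1a2 and Cyp26a1. The genes were chosen by name, and every deposited peak or region whose midpoint lay in one of them or within 50 kb was assigned to it. They were 8 of 21887 protein-coding genes. They took 72 of 53132 peaks of WT1 replicate 1, 86 of 57641 peaks of WT1 replicate 2 and 30 of 17234 regions found in both.

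Chromatin immunoprecipitation followed by sequencing was carried out with the WT1 antibody C-19 (2 samples) and with IgG as the negative control (2 samples). All came from kidneys microdissected from wild-type mice at E18.5, late in embryonic life, with a mixed background in which C57Bl6 was crossed with B6DBA/F1. Whole developing kidney mixes nephron progenitors, podocytes, stroma and ureteric epithelium, so a peak cannot be given to a cell type. The sources used here do not name the number of embryos behind a sample. Peaks of the WT1 samples are described, and the IgG samples are not analysed here.

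Retinoic acid is made from vitamin A. The protein encoded by Stra6 takes up retinol from its carrier in the blood, the dehydrogenase encoded by Aldh1a2 makes retinoic acid from retinaldehyde, and the cytochrome P450 encoded by Cyp26a1 breaks retinoic acid down. Retinoic acid binds receptors of the RAR family, which sit on DNA as partners of RXR receptors and switch genes on when the ligand arrives. In the developing mouse kidney, retinoic acid signalling through RARs is known for maintaining Ret in the ureteric bud. WT1, a zinc-finger transcription factor, is made in nephron progenitors and podocytes.

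Each peak carries the authors' own significance value, a p-value or q-value that does not exceed 0.0499 in either list (the sources used here do not name which). Each region of the deposited table of both replicates carries an irreproducible discovery rate (IDR), which is low where the replicates rank a region alike among the strong ones. A region with an IDR of 0.05 or lower is called reproducible, and 25.6% of the table's regions were. The files hold no read counts, so depth is unknown and no peak height can be compared. With 2 samples of 1 group no test between samples was possible.

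Reproducible WT1 regions lay at 4 of the 8 genes: Rara and Rxra with 4 each, and Rarg and Stra6 with 2 each. Regions were counted apart as deposited, here and over all genes. However, 2 of the Rxra regions were only 2 bp apart and the 2 of Rarg 70 bp apart, so both genes had fewer separate places. None lay in or within 50 kb of Rarb, Rxrb, Aldh1a2 or Cyp26a1. Of all protein-coding genes, 26.1% had at least 1 reproducible region by the same rule, 8.37% had 2 or more and 1.06% (231 genes) had 4 or more. The median number of reproducible regions was 1 over the 8 genes and 0 over all genes, and the means were 1.5 and 0.392. The genes' windows were also longer, with a median of 164 kb against 117 kb over all genes; per 100 kb of window the means were 0.943 and 0.281 reproducible regions.

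**Figure D1:**
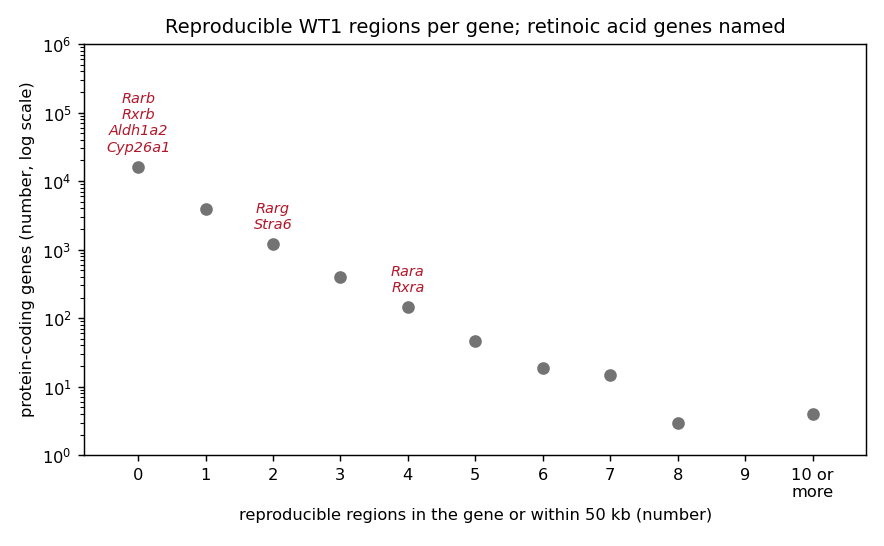
Number of protein-coding genes (vertical, log scale) by the number of reproducible WT1 regions in the gene or within 50 kb (horizontal), with the 8 retinoic acid genes named above their point. Neighbouring regions are counted apart, as deposited. Rara and Rxra stand at 4 regions, a number that 144 genes have, and Rarb, Rxrb, Aldh1a2 and Cyp26a1 stand among the 16176 genes with 0.

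Of the 12 reproducible regions, 11 lay inside the gene they were assigned to and 1 just outside it. The same share of regions over all genes was not worked out, so 11 of 12 cannot be read as particular to these genes. A reproducible region inside the gene was present in 4 of the 8, against 7.95% of all protein-coding genes. Such shares depend on gene length, which was not matched. The 4 genes were 22.6 to 90.2 kb long. Rara held 4 inside it, and 4 or more were held by 45 genes (0.206% of all protein-coding genes), Rara among them. Within 1 kb of a start listed by RefSeq lay a reproducible region of Rxra and 1 of Rarg, and within 2 kb also of Rara; over the 17492 protein-coding genes with a listed start, 4.05% and 4.66% had a region at these distances.

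**Figure D2:**
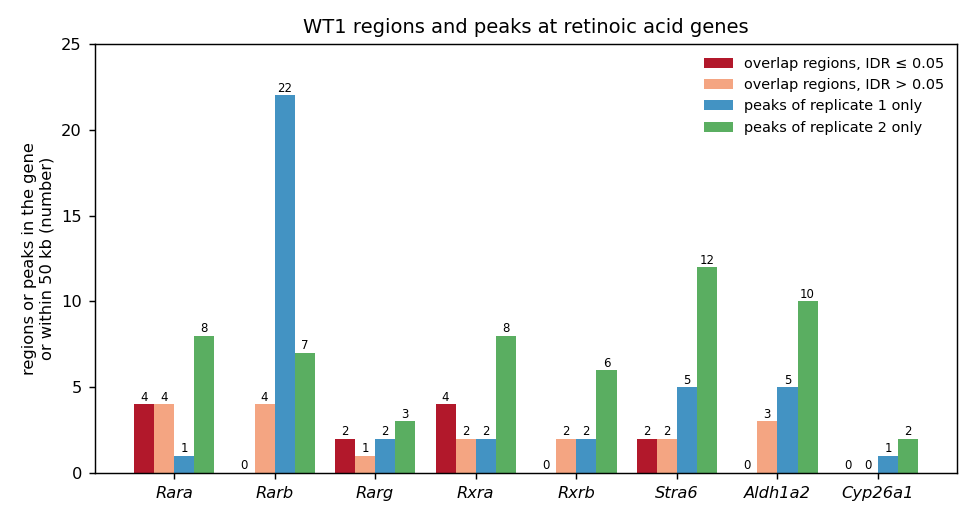
Number of regions or peaks in each gene or within 50 kb (vertical), split into overlap regions with an IDR up to 0.05, overlap regions above it, and peaks of replicate 1 or replicate 2 that overlap no peak of the other. Rarb has 22 peaks of replicate 1 only and 0 reproducible regions, and Cyp26a1 has 3 peaks in all, none in both replicates.

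Of the 17 promoter windows listed for the 8 genes (250 bases before to 50 after a start, RefSeq, GRCm38.p6), 4 held part of a WT1 peak, and 2 of those 4 are overlapping windows of the same Rara promoter. They are shown because they are the only places where the deposited peaks and a listed start of these genes meet; 1 of the Rara windows stands for both. Capitals mark the bases inside the peak of replicate 2, and each window is written 5′ to 3′ along its gene.
Rxrb (chr17:34032100-34032399, plus strand): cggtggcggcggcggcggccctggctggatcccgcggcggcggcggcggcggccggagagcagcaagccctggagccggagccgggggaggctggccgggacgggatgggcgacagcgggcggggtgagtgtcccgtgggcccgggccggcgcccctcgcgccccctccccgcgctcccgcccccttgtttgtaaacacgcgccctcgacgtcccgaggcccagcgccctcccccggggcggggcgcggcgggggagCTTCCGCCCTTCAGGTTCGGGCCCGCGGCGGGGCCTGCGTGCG
Rara (chr11:98937446-98937745, plus strand): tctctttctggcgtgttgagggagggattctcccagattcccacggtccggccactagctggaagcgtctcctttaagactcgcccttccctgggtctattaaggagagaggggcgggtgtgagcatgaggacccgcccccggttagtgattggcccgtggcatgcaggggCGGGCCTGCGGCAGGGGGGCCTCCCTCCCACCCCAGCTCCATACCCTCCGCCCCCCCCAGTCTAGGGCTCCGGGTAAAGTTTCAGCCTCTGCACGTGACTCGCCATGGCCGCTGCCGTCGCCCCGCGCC
Rarb (chr14:16575427-16575726, minus strand): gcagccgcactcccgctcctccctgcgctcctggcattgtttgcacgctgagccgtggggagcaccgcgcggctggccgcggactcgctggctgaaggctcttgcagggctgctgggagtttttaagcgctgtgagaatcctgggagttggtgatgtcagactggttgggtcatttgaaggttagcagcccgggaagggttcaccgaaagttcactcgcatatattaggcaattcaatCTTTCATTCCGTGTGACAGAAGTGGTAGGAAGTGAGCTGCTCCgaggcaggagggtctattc

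The Rxrb window was the only one with a peak in both replicates. The peak began 7 bases after the listed start in both lists, between the G and the C of an AGCT, which is the site that the restriction enzyme AluI cuts. Per the labels' protocols the DNA was digested with AluI or HaeIII, each together with MseI, before adapters were ligated. The Rara peak ran from 79 bases before the listed start through the end of the window, with a significance value of 0.000447, and replicate 1 had no peak there. The Rarb peak was 43 bp wide, had a value of 0.0156 and was also found in replicate 2 alone. The Rarb window contains GGTTCA, 5 bases and AGTTCA, the direct repeat known as the retinoic acid response element of Rarb. The repeat lay 53 to 37 bases before the start, and the peak began 12 bases before it, so the repeat was outside the peak. The repeat was found in 2 of 32851 windows (0.00609%, both strands).

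The promoter nearest to the strongest region of the set, that of Rxra, is shown for contrast. Its window lies at the downstream side of that region and holds no peak.
Rxra (chr2:27676951-27677250, plus strand): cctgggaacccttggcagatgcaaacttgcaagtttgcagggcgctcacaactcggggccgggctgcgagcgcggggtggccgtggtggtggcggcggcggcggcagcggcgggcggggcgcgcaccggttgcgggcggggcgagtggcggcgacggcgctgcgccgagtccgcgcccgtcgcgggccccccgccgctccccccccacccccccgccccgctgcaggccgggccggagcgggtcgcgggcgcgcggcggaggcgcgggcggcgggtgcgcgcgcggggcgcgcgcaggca

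Short cores of sequences bound by WT1 and related zinc-finger proteins were searched on both strands of the promoter windows. GGGAGGG was present in 8 of the 17 windows (47.1%), against 22.0% of all windows; 2 of the 8 are the overlapping Rara windows, so that promoter is counted in both. GTGGGAG was present in 2 (11.8%), the same overlapping Rara windows, against 9.73% of all. GCGTGGG was present in 1 (5.88%), that of Aldh1a2, against 5.04% of all. Matches to such G-rich cores depend on base composition. The share of G and C bases in the 17 windows ran from 51.6% (a Rarg window) to 82.9% (an Rxra window). It was not compared with that of all windows, so the shares are not matched for it. GTGGGAG and GGGAGGG share the letters GGGAG, so that matches can overlap. In the Rara window shown, 1 GTGGGAG and 1 GGGAGGG lay inside the peak of replicate 2, overlapping each other on the opposite strand. The Rxra window shown held none of the 3, and neither did the windows at the downstream starts of Rara and Rarg, the other starts with a reproducible region within 2 kb.

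Rara, which encodes RAR alpha, spans 98927800 to 98974942 on chromosome 11 (mm10), and all 4 of its reproducible regions lay inside it. The strongest pair flanked its downstream start at 98964872. The first of the pair, at 98959111 to 98959850, lay 5.39 kb before that start, with an IDR of 8.02e-07 and significance values of 1.11e-43 in replicate 1 and 1.48e-68 in replicate 2. The other, at 98966622 to 98966984, lay 1.93 kb after it, with an IDR of 7.9e-07 and values of 5.09e-24 and 1.77e-48 in replicates 1 and 2. Both were among the 207 lowest IDR values of the table, and both replicates placed them near the top of their lists, at ranks 84 and 347 in replicate 1 and 135 and 276 in replicate 2.

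Between this pair, another Rara region at 98963355 to 98963944 lay 1.22 kb before the downstream start, with the same edges in both replicates. Its IDR was 0.00265, and its values were 3.1e-05 and 9.85e-12 in replicates 1 and 2. These 3 regions fell within a stretch of the gene in which the gaps between them were 3.5 kb and 2.68 kb. Rara is known to be transcribed from an upstream and a downstream promoter. The downstream promoter, which gives the RAR alpha 2 isoform, is known to respond to retinoic acid. The listed starts carry no isoform name, and whether the downstream start listed here is that promoter was not tested. The fourth region, at 98929530 to 98930043, was 29.1 kb away from the others and 7.91 kb before the first listed start at 98937696. It lay 1986 bp inside the upstream edge of the annotated gene, where no start is listed. Its IDR was 0.00405, and its values were 0.000115 and 1.52e-16 in replicates 1 and 2.

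Rara also had 4 overlap regions above the threshold. Of these, 3 lay within 98951008 to 98951768, between 11.4 and 12 kb after the listed start at 98939711, with IDR values of 0.443, 0.111 and 0.551. The middle one, at IDR 0.111, had values of 0.00627 and 4.95e-08 in replicates 1 and 2, and at the last one the order turned, with 0.000765 in replicate 1 and 0.0469 in replicate 2. The fourth weak region was 52.4 kb from the nearest Rara start and inside the neighbouring gene Wipf2. Of the peaks found in 1 replicate only, 1 belonged to replicate 1 and 8 to replicate 2. The strongest of them had a value of 1.82e-06 (98967035 to 98967303) and lay just beyond the region that follows the downstream start.

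Rarb, which encodes RAR beta and is itself a target of retinoic acid, had no reproducible region. It is by far the longest of the 8 genes, at 651 kb on chromosome 14 (16430839 to 17082331), and 1 start is listed for it, at 16575476. Its 4 overlap regions all lay inside the gene and had IDR values of 0.343, 0.353, 0.424 and 0.531. The values in replicate 1 were between 0.0136 and 0.0436, and the lowest in replicate 2 was 0.000274. The nearest of these regions to the listed start was 15.4 kb downstream of it, and the nearest reproducible region to the gene was 1580 kb away.

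In Rarb and the 50 kb on either side lay 26 peaks of replicate 1 and 11 of replicate 2, and it was the only one of the 8 genes at which replicate 1 had more. Per 100 kb that was 3.46 and 1.46 peaks, against means of 2.36 and 3.29 over all protein-coding genes. Of the 26, 22 overlapped no peak of replicate 2. Their values ran from 0.00347 to 0.0436, and the 7 peaks of replicate 2 alone ran from 0.00867 to 0.0469. In neither list did a peak here have a value as low as that list gave the reproducible regions of Rara.

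Rarg, which encodes RAR gamma, is a short gene at 22.6 kb (chromosome 15, 102234938 to 102257522, minus strand), and its regions clustered before its downstream start at 102246500. The region at 102247240 to 102247493 lay 866 bp before that start, with an IDR of 0.00982 and values of 0.000586 and 6.81e-12 in replicates 1 and 2. A further region at 102247564 to 102247666 lay 1115 bp before it, with an IDR of 0.00609 and values of 2.41e-05 and 4.38e-08. The regions were 70 bp apart, so they may count as 1 site. A weaker overlap region 632 bp after the same start had an IDR of 0.0948, and both replicates gave it the same edges (102245808 to 102245929). Replicate 2 had another peak of its own 0.511 kb before the start (102246901 to 102247121, value 0.0008). At the upstream start of the gene, at 102257522, no peak was found in the promoter window, and the nearest reproducible region was 9.91 kb away.

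**Figure D3:**
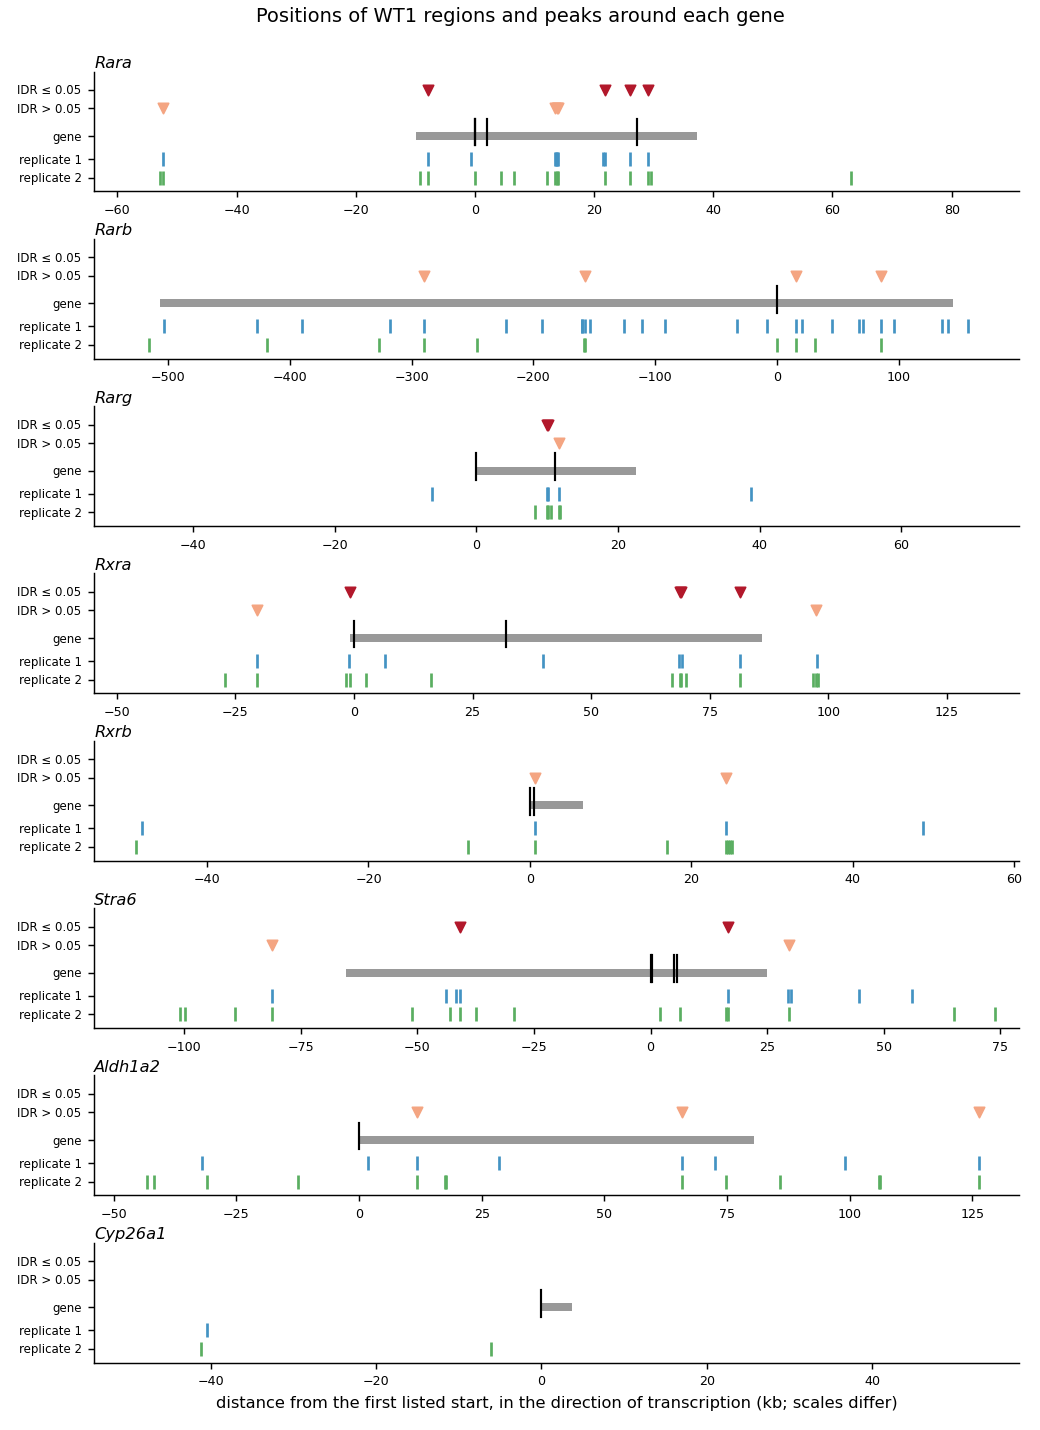
Positions of WT1 regions and peaks around each of the 8 genes, as distance in kb from the gene's first listed start in the direction of transcription, with a separate scale for each gene. Grey bars are genes, black lines listed starts, triangles overlap regions with an IDR up to 0.05 (dark) and above it (light), and short lines peaks of replicates 1 and 2. Of the 4 dark triangles of Rara, 3 lie around its downstream start and 1 inside the gene before its first listed start. Both of Rarg lie before its downstream start, while 1 of Rxra stands 876 bp before the first start and the others deep in the gene.

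Rxra, which encodes RXR alpha, the common partner of the RARs and of other nuclear receptors, had the lowest IDR of the set. The region at 27675965 to 27676686 on chromosome 2 lay 876 bp before the first listed start at 27677201, at 722 bp wide, with an IDR of 3.69e-07, rank 77 of 17234. Its values were 7.23e-40 in replicate 1 and 7.94e-74 in replicate 2, at ranks 115 and 116 of their lists. Its midpoint was just outside the annotated gene, which spans 27676445 to 27763319, and its downstream part reached into it.

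The other 3 reproducible regions of Rxra lay deep in the gene. At 27745944 to 27746505, 36.9 kb after the second listed start, the IDR was 1.96e-06 and the values were 2.94e-19 and 5.68e-43 in replicates 1 and 2. Only 2 bp before it ended another region (27745760 to 27745941) with an IDR of 0.0464, the highest of the 12 and the closest to the threshold. That small region had values of 0.0314 and 0.00867. It is listed apart from its neighbour in the deposited table, and counted with it Rxra had 3 separate places. The last region, at 27758488 to 27758735, had the same edges in both replicates, an IDR of 0.00535 and values of 1.13e-05 and 1.97e-08. The 2 weaker overlap regions lay outside the gene on either side, at IDR 0.282 and 0.277. No other protein-coding gene lay within 50 kb of any of the 6 Rxra regions.

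Rxrb, which encodes RXR beta, had no reproducible region within 50 kb. It is a compact gene of 6.59 kb on chromosome 17 (34031812 to 34038403), and 5 other protein-coding genes lay within 50 kb of its overlap regions. The region at its downstream start, shown in the sequence above, spanned 34032357 to 34032545 with an IDR of 0.211. Replicate 1 gave it 0.0107 and replicate 2 1.48e-07, rank 15409 and rank 4375. From replicate 2 alone, with as many peaks as there are reproducible regions, Rxrb was therefore counted as having 1; from replicate 1 alone it had 0. The other overlap region (IDR 0.4) lay 23.8 kb away inside Col11a2, a collagen gene. The nearest reproducible region was 83.2 kb from the gene (34121489 to 34121816, IDR 1.11e-05).

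**Figure D4:**
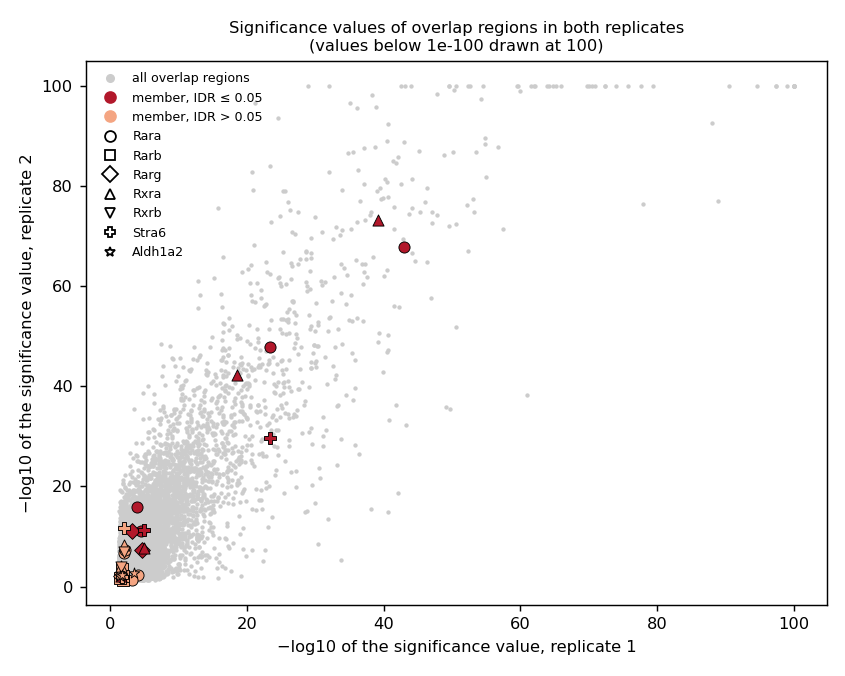
Significance values of the overlap regions as −log10, replicate 1 (horizontal) against replicate 2 (vertical), with 1 symbol for each gene, dark where the IDR was up to 0.05 and light above it; grey points are all 17234 overlap regions. Of the dark symbols, 5 from Rara, Rxra and Stra6 lie far from the origin, and the rest lie near it with the light ones.

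Stra6 had 2 reproducible regions, both inside the span annotated for it on chromosome 9 (58063793 to 58154004). The stronger, at 58088012 to 58088577, had the same edges in both replicates, an IDR of 1.08e-06 and values of 4.75e-24 and 1.97e-30 in replicates 1 and 2. It lay 40.8 kb before the first of the 4 listed starts, and its midpoint was inside the neighbouring gene Ccdc33 as well, so its assignment to Stra6 rests on the long annotated span. The other, at 58145439 to 58146053, lay in the gene 11.1 kb after the last listed start, with an IDR of 0.00209 and values of 1.2e-05 and 5.47e-12. A region outside the gene, nearest to Islr, had a value of 2.04e-12 in replicate 2 but 0.00913 in replicate 1, and its IDR was 0.222. Just outside the 50 kb limit a further reproducible region lay 54.7 kb from Stra6 (IDR 0.000153).

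Aldh1a2, which encodes the enzyme that makes most retinoic acid in the early mouse embryo, had 3 overlap regions and none was reproducible. The lowest IDR was 0.254, at 71227494 to 71227737 on chromosome 9, 11.8 kb after the only listed start. Here the order of the replicates turned: the value was 0.000394 in replicate 1 and 0.00239 in replicate 2, and both lists gave the same edges. The other regions had IDR values of 0.45 and 0.373. Replicate 1 alone had 5 more peaks and replicate 2 alone 10, with values no lower than 0.0173 and 0.0018. The nearest reproducible region was 103 kb from the gene (IDR 0.0207).

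Cyp26a1 had the fewest peaks of the set. On chromosome 19, the gene and the 50 kb on either side held 1 peak of replicate 1 and 2 of replicate 2, all outside the gene (37697738 to 37701536), and no overlap region. Of the 8 genes, the other 7 had an overlap region and all 8 had peaks of both lists; of all protein-coding genes, 57% had an overlap region, 84.4% a peak of replicate 1 and 83.3% a peak of replicate 2. The peak of replicate 1 had a value of 0.0314 and lay 40.4 kb before the start, and the stronger peak of replicate 2 had 0.00374 and lay 41.2 kb before it. The nearest reproducible region was 147 kb away (IDR 0.00842). Neither the absence of a peak nor a weak one shows absence of binding, because the depth is unknown.

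Over the 12 reproducible regions the median width was 538 bp, against 372 bp over all 4411 reproducible regions, and the 18 weaker ones had a median of 212 bp against 197 bp. The median significance value in replicates 1 and 2 was 1.17e-05 and 2.74e-12 for the 12 regions, against 8.1e-07 and 1.54e-12 over all reproducible regions. Replicate 2 gave the smaller value at all 12 and at 14 of the 18 weaker ones. The share of all regions with a smaller value in replicate 2 was not worked out. Its median was also the lower one over all reproducible regions, as given above. The same held over all weaker regions (0.0173 in replicate 1 and 0.00493 in replicate 2), so lower values in replicate 2 are not particular to these genes. The median distance of the 12 to the nearest listed start of any protein-coding gene was 6.65 kb, with a range of 0.866 to 49.3 kb. Over the 4248 reproducible regions on chromosomes with listed starts it was 33.0 kb. The 12 had been taken for lying in or near a gene, so the medians are not of like sets. Starts were listed for 17492 of the 21887 protein-coding genes, so a distance can be too long where a start is missing. Of the peaks at the 8 genes, 44.4% of replicate 1 and 34.9% of replicate 2 overlapped a peak of the other, against 34.1% and 30.8% of all peaks.

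Of 19 other genes of the pathway (retinol and retinaldehyde enzymes, binding proteins, degrading enzymes and cofactors of the receptors), 6 had a reproducible region in the gene or within 50 kb (31.6%, against 26.1% of all protein-coding genes), with a median of 0 regions a gene. Among the enzymes, Rdh10, which makes retinaldehyde from retinol, had 1 region 0.507 kb outside the gene (IDR 0.0144), and Aldh1a3, another retinaldehyde dehydrogenase, had 1 at 22.0 kb (IDR 0.0208). Among cofactors, the coactivator gene Ncoa2 had 1 region 0.031 kb outside it (IDR 2.91e-05). The lowest IDR values near the retinoic acid carrier gene Crabp2 (7.29e-07, 17.8 kb away) and the coactivator gene Ncoa3 (2.9e-06, 42.7 kb away) belonged to regions nearer to Nes and to Sulf2. The other 13 had none, among them the RXR gamma gene Rxrg and the degrading enzymes Cyp26b1 and Cyp26c1, so none of the 3 Cyp26 genes had 1.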

How the data were processed

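WT1 peaks were mapped by ChIP-seq in 2 samples; the 2 IgG samples are not analysed here. The authors deposited a peak list for each WT1 sample with a p-value or q-value per peak, and a table of regions overlapping in both with an IDR per region, read as a fraction. The build is mm10 per the submitters' processing notes. Aligner, peak caller and any use of IgG reads: not given in the sources used here. Per the labels' protocols, libraries were digested with restriction enzymes and amplified by 18 rounds of PCR.

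Positions were made 1-based, and peaks and regions were placed by their midpoints. Genes and promoter windows came from RefSeq tables of GRCm38.p6, the assembly behind mm10; listed starts are 250 bases into each window, and no genome sequence was used, so motifs were searched in promoter windows and not in regions. The value of a region in a replicate is the smallest of its overlapping peaks (at least 1 bp). Counts were made in Python 3.11.15 with pandas 2.3.3 and numpy 2.4.6 and tested on simulated peaks. All 8 genes are named with every reproducible region, and pathway genes where they have 1, apart from a gene that is not reported here; Rxrg, Cyp26b1, Cyp26c1, Wipf2, Islr and Col11a2 were named after their values were seen. Members and lists were chosen with earlier results of these data known. Alternatives were IDR thresholds, windows, placement by any overlap, a stricter overlap and each replicate alone.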

Additional observations from a re-analysis of the deposited data

How the results depend on the processing

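The genes with a reproducible region were Rara, Rarg, Rxra and Stra6 at an IDR of 0.01 (19.6% of all protein-coding genes had one) or 0.1 (30.2%), with a window of 10 kb (13.6%) or the gene body alone (7.95%), with placement by any overlap (26.1%), and with peaks overlapping by at least 50% of both (23.7%). At 100 kb Rxrb joined them, where 38.1% of all genes had a region. With all overlap regions, whatever their IDR, 7 of the 8 genes and 15 of the 19 pathway genes had a region, and the 8 genes had 30, while the share of all protein-coding genes was 57.0%. Of the 19 pathway genes, 11 had a region with the 100 kb window and 2 with the gene body alone, to be read against the same 38.1% and 7.95% of all genes. From the 4411 strongest peaks of each replicate alone, 4 to 5 of the 8 genes, 11 to 15 peaks at them and 6 to 7 pathway genes were counted, against 26.2% of all genes without replicate 1 and 24.7% without replicate 2. Of the 80 counts for single genes under an alternative, 72 were within 1.5 times the reported count. These include counts that were 0 and stayed at 0, for which the factor has no meaning. The counts that moved were those of Rara, Rarb, Rxrb, Stra6 and Aldh1a2 with all overlap regions. Rxrb also moved at 100 kb and from replicate 2 alone, and Rarg had 1 instead of 2 from replicate 1 alone. No paired analysis was possible because only the WT1 samples have peak lists and no test between samples was made. Without read counts, depth cannot be weighed.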

Other observations

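The IDR of a region did not always follow the significance values of its peaks. The small Rxra region at IDR 0.0464 had values of 0.0314 and 0.00867 in replicates 1 and 2. Of the 1996 regions with both values at least as high, 33 (1.65%) were reproducible. The Rara region at IDR 0.111 had 0.00627 and 4.95e-08. Of the 3517 regions with both values at least as low, 214 were not reproducible. Over all 17234 overlap regions the IDR had a Spearman rho of 0.7 with the values of each replicate, a description across regions of the same libraries. The sources used here do not name the measure that the authors ranked for the IDR, so the small Rxra region can be read as reproducible only by the deposited IDR.

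Of the 30 overlap regions at the 8 genes, 13 had the same start base and 12 the same end base in both replicates, and 8 had both. Over all overlap regions the shares were 38.4% and 38.3%. Where a peak edge fell within a promoter window, its surrounding bases could be read. Peak starts of replicate 1 stood exactly at the AluI cut of AGCT in 24.6% of 965 cases, at the MseI cut of TTAA in 6.11% and at the HaeIII cut of GGCC in 0.725%. For replicate 2 the shares were 17.0%, 5.61% and 0.671% of 1640 cases. The sources used here do not tie an enzyme pair to a sample. The shares expected from the frequency of these sites were not worked out. The only overlap region that reached a promoter window of the 8 genes was that of Rxrb. The bases at the edges of the reproducible regions were therefore not read. Whether their widths and distances to a start rest on cut sites was not tested.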
